A study of Arabidopsis thaliana with 27 samples.

Results

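The genes described are AT1G66760 and AT1G33110, both annotated as efflux transporters of the MATE (multidrug and toxic compound extrusion) family in Arabidopsis thaliana. They were taken by annotation: the spots assigned to these 2 genes were kept, out of 416 genes that have a named spot on the array. Both are protein-coding genes on chromosome 1 in the RefSeq annotation of assembly TAIR10.1, AT1G66760 with 4 annotated transcripts and AT1G33110 with 2. Each is represented by 2 spots. Since a spotted probe was not assigned to exons or to a transcript here, the values refer to the gene.

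MATE proteins are secondary transporters of the plasma membrane and of organelle membranes. They move organic molecules out of the cytosol, usually in exchange for protons or other cations, and are known in plants for carrying flavonoids, alkaloids, organic acids and foreign compounds. One Arabidopsis member of the family, EDS5, exports salicylic acid from the chloroplast during defence. No source used here names a substrate of AT1G66760 or AT1G33110, so no transport role is assigned to either gene below.

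The study sprayed wild-type plants of the Columbia ecotype with one of 6 agents that are used to switch on plant defence, and compared each treated pool of plants with untreated plants on 2-colour spotted arrays. The agents were 5 mM salicylic acid (SA), a defence hormone, 1 mM 2,6-dichloroisonicotinic acid (INA) and 0.5 mM benzothiadiazole (BTH), both synthetic compounds known to act on the salicylic acid pathway, 10 mM beta-aminobutyric acid (BABA), a non-protein amino acid that primes defence, 1 mM ethephon (ET), which releases ethylene, and 0.1 mM methyl jasmonate (MeJA), the methyl ester of the defence hormone jasmonic acid. Leaves (called whole plants without roots in another field) of 28-day-old soil-grown plants kept in 12 h light was collected 2, 5, 10 and 24 h after spraying. Treated RNA carried Cy5 and untreated RNA Cy3 on every array, without a dye swap, and no mock spray is described for the untreated plants. Doses differed between agents, so a difference between agents is a difference between these sprays at these doses. Ratios carry no transcript level, so the tissue could not be set against leaf markers.

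There were 24 conditions (agent and time) on 27 arrays. Of these, 21 had 1 array, and 3 (INA after 10 and 24 h, BTH after 5 h) had 2, which were averaged. Between 1204 and 2358 of 2560 spots had a value on an array, and array medians ran from -0.76 to 1.49 before centring. Labels of 2 arrays contradict themselves: the first INA array of the 10 h group names 2 h in another field, and the ET array of the 10 h group names 5 h in its protocol. Both were used as their titles state, and the 4 arrays titled JA were taken as MeJA, which their source and protocol fields name. Results without the first INA 10 h array are given where they differ. A value below is the log2 ratio of treated to untreated signal after subtraction of the array's median, so 0 means a gene that moved with the middle of the array, and 1 means a doubling relative to it. Each condition is one RNA pool made from several experiments. P-values of the fits measure the spread of conditions around the fitted terms. For agents, pairs and times these are agent and time terms, so the time course shared by all agents is removed from that spread. Repeat arrays of one condition measure technical spread.

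AT1G66760 was high soon after spraying and lower later. Under SA its values at 2, 5, 10 and 24 h were 2.28, 1.92, 1.18 and 0.52. MeJA gave 2.19, 1.88, -0.21 and 0.75 in the same order of times. All 4 SA values and 3 of 4 MeJA values were therefore above the array median, with the exception at 10 h.

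The synthetic compounds gave a short positive phase. INA gave AT1G66760 values of 1.58, -0.21, -0.81 and -0.75, the last from 1 spot on 1 of 2 arrays. BTH gave 1.14, 0.80, -0.53 and -0.78. Under both compounds the gene was above the median at 2 h and below it at 10 and 24 h, and at 5 h only BTH kept it above.

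ET gave AT1G66760 0.84 at 2 h, -0.05 at 5 h and -0.39 at 10 h, with no value at 24 h. BABA gave -1.23 at 2 h, -3.11 at 5 h and -3.44 at 10 h, again with no value at 24 h. BABA was the agent under which every measured value was below the median, and its lowest values were the lowest of the gene in the series. The values at 5 and 10 h came from 1 spot each, a different spot at each time.

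AT1G33110 was above the array median in nearly every condition. SA gave 3.03, 2.48, 1.5 and 1.05 at the 4 times in order. INA gave 1.22, 0.86, 0.87 and 0.69, and BTH gave 0.85, 1.51, 1.08 and 0.58. SA values fell at each step, while those of INA and BTH stayed within a narrower band.

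ET gave AT1G33110 0.90, 0.82, 1.33 and 1.22 at 2, 5, 10 and 24 h. MeJA gave 0.27, 1.26, 0.82 and 1.73, so its lowest value was at 2 h, when AT1G66760 was highest under the same agent. BABA gave -0.70, -0.37, -0.66 and 0.59. Those first 3 BABA values are the only ones of AT1G33110 below the median, out of 24.

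**Figure D1:**
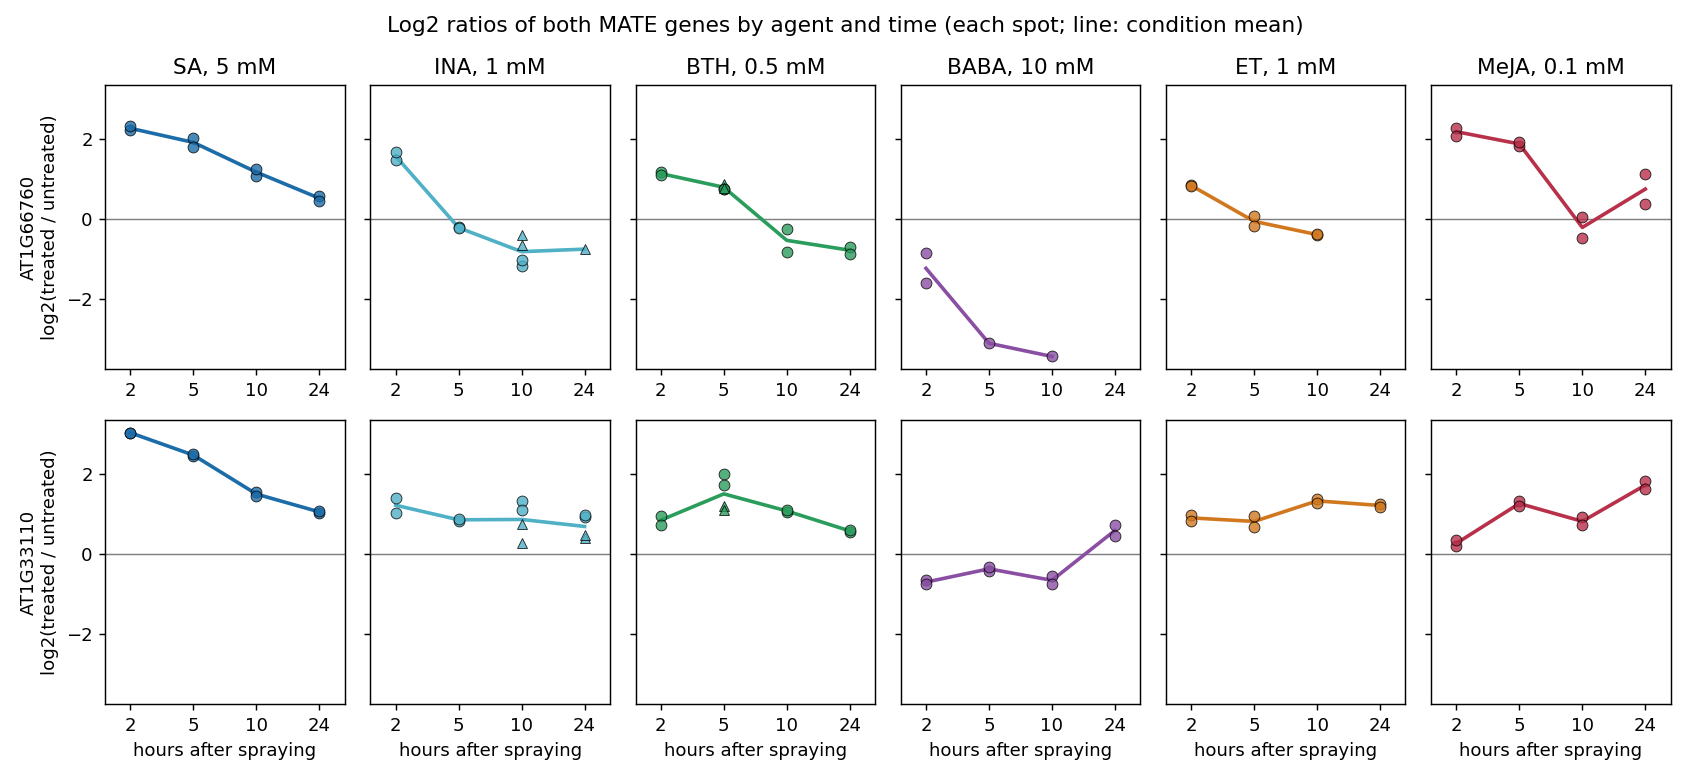
Log2 ratio of treated to untreated signal, median-centred, for AT1G66760 (top) and AT1G33110 (bottom) against hours after spraying (time points evenly spaced), 1 panel per agent. Points are single spots (circles first array, triangles repeat array) and lines join condition means. AT1G66760 starts at its highest value at 2 h in each panel, from -1.23 under BABA to 2.28 under SA, and AT1G33110 drops below 0 under BABA alone.

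The paired spots show how closely a value repeats on one array. AT1G66760 had 45 of 54 possible spot values, and on the 21 arrays with both spots they differed by a median of 0.17 and at most 0.77. Missing values fell on INA 24 h, ET 24 h and the BABA arrays from 5 h on. AT1G33110 had all 54, with a median difference of 0.12 and a maximum of 0.49. Between repeat arrays (first minus second) AT1G33110 differed by 0.71 for the 10 h INA pair, by 0.51 for the 24 h INA pair and by 0.71 for the BTH pair. AT1G66760 differed by -0.57 for the 10 h INA pair and by -0.07 for the BTH pair, and the 24 h INA pair could not be compared.

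Averaged over times, AT1G66760 was higher than the array median under SA and MeJA and lower under BABA. Its fitted mean was 1.47 ± 0.21 (SE, 4 times) under SA, a 2.78-fold higher ratio (adjusted p = 3.9e-06), and 1.16 ± 0.21 under MeJA, 2.23-fold higher (adjusted p = 0.00015). Under BABA it was -2.84 ± 0.26 (3 times), 7.16-fold lower (adjusted p = 4.1e-09), and ranked 175 of 180 tested genes from the highest. Means under INA (-0.05 ± 0.21), BTH (0.16 ± 0.21) and ET (-0.11 ± 0.26, 3 times) did not pass, with adjusted p of 0.85, 0.56 and 0.73. The INA and ET means each combine a positive value at 2 h with values below 0 at the later measured times. The BTH mean combines positive values at 2 and 5 h (1.14 and 0.80) with negative values at 10 and 24 h (-0.53 and -0.78).

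AT1G33110 was higher than the array median under 5 of the 6 agents. The mean was 2.02 ± 0.27 (SE, 4 times) under SA, 4.04-fold higher and 14th of the 180 genes from the highest (adjusted p = 7.4e-07). ET gave 1.07 (adjusted p = 0.0020), MeJA 1.02 (adjusted p = 0.0031), BTH 1.00 (adjusted p = 0.0026) and INA 0.91 (adjusted p = 0.0056), each ± 0.27 and close to 2-fold. The BABA mean of -0.29 ± 0.27 did not pass (adjusted p = 0.34), and without the 24 h condition it was -0.58 (adjusted p = 0.047). Tests of a mean against 0, for either gene, do not separate an agent's effect from that of Cy5 labelling or of spraying itself. Neither was tested, since the arrays had no dye swap and no mock spray is described.

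Calls were frequent among all genes on this array, which carries selected genes. Of the 180 genes with enough values to be tested, the mean passed in either direction for 72.8% with SA, 66.7% with BABA, 60% with INA, 60% with BTH, 53.9% with ET and 46.1% with MeJA. A call alone is therefore common here. The median of the means of all tested genes lay between -0.04 (MeJA) and 0.11 (ET).

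**Figure D2:**
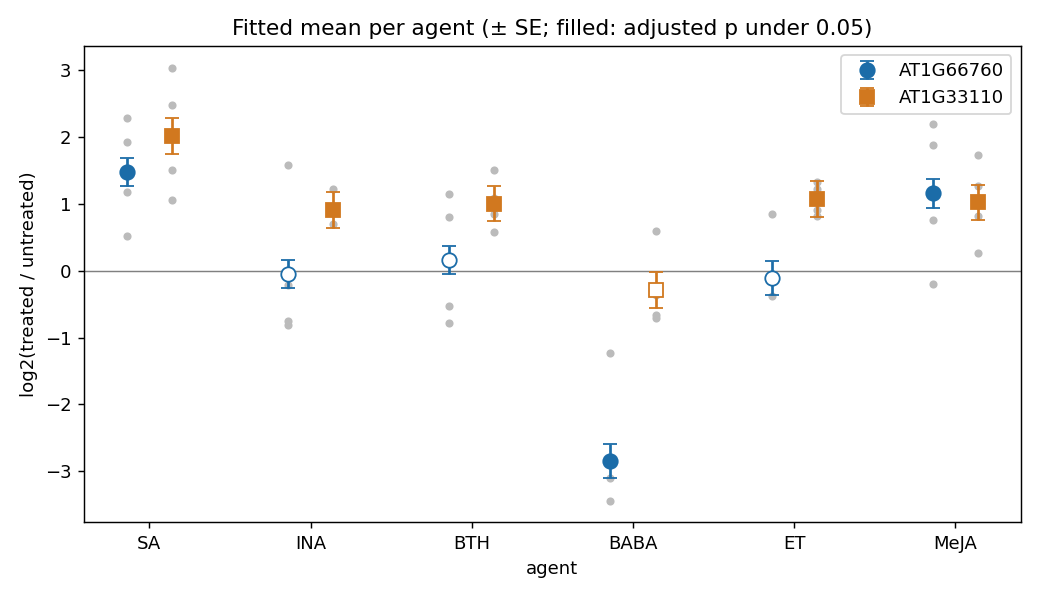
Fitted mean log2 ratio per agent for AT1G66760 (blue circles) and AT1G33110 (orange squares), with SE bars; grey points are the conditions and filled symbols have adjusted p under 0.05. AT1G66760 spans 1.47 (SA) to -2.84 (BABA), and AT1G33110 spans 2.02 (SA) to -0.29 (BABA).

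Direction against the array median depends on how the arrays are centred, and TUA5, an alpha-tubulin gene with 54 spots, was below the median on 25 of 27 arrays. After centring on TUA5 the median of all tested genes lay between 0.27 (BABA) and 1.41 (BTH). AT1G66760 then had called means of 0.88 under INA (adjusted p = 0.0011) and 1.52 under BTH (adjusted p = 3.5e-06), where the medians of all genes were 0.92 and 1.41. The sign under INA was turned, as it was with deposited values without a call (0.68, adjusted p = 0.076), and the sign under ET was positive in both (0.29 and 0.80), also without a call. Its lower value under BABA and higher values under SA and MeJA were called under all 4 centrings shown, and so were the 5 higher means of AT1G33110. The mean of AT1G33110 under BABA changed sign with the deposited values, at 0.09.

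**Figure D3:**
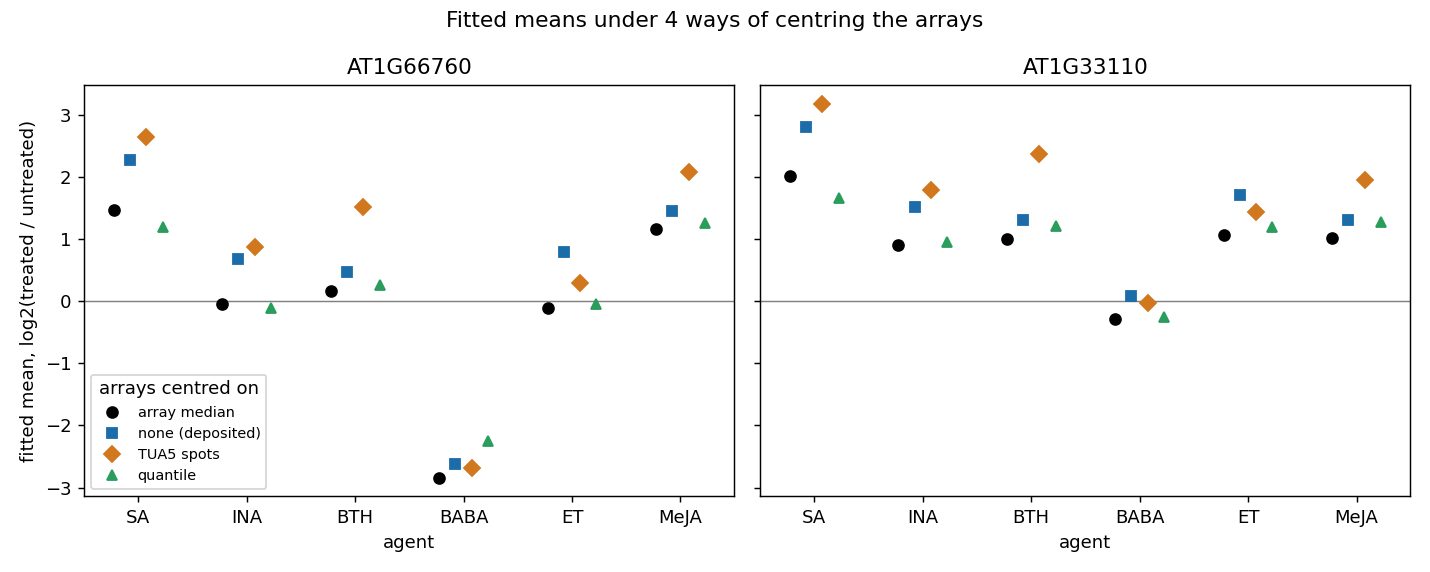
Fitted mean log2 ratio per agent under 4 ways of centring the arrays (on the array median, not at all, on TUA5 spots, or by quantile normalization), AT1G66760 left and AT1G33110 right. The AT1G66760 mean under INA moves from -0.05 with array medians to 0.88 with TUA5, and its mean under BABA lies far below 0 in all 4.

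Agents were then compared with each other. Adjusted p-values in this comparison run over all tested genes within a pair of agents, and over all 15 pairs and all genes 37.9% of the 2700 tests passed. AT1G66760 differed between agents overall (F = 39.5, adjusted p = 1.3e-08, 6th of 180 genes by F), as did AT1G33110 (F = 7.48, adjusted p = 0.00056, 86th). Here 86.1% of all genes passed, so a call in this test is common to most genes on the array.

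For AT1G66760 the order of fitted means was SA, MeJA, BTH, INA, ET and BABA. Without a time term ET (0.13) lay above INA (-0.05). SA and MeJA did not separate, with a difference of 0.32 ± 0.30 (SE) and a 95% interval of 0.63 either side (adjusted p = 0.36). BTH lay 1.00 ± 0.30 below MeJA, called at an adjusted p of 0.016, but this call was lost with deposited values (-0.98, adjusted p = 0.17), with TUA5 centring (-0.56, adjusted p = 0.13) and without the 24 h conditions (-0.82, adjusted p = 0.094). BTH, INA and ET formed a group without a called difference: INA minus BTH was -0.21, with an interval of 0.63 either side, and INA minus ET was 0.07, with an interval of 0.69 either side. With TUA5 centring BTH exceeded ET by 1.23 (adjusted p = 0.0048).

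BABA stood apart for AT1G66760. The gap between BABA and ET, its nearest neighbour in the order, was -2.72 ± 0.35 (adjusted p = 3.8e-06), a 6.61-fold lower ratio. SA exceeded BABA by 4.31 ± 0.33 (adjusted p = 3.0e-09), a 19.9-fold difference and the highest of the 180 genes for that pair. INA exceeded BABA by 2.79 ± 0.33 (adjusted p = 4.6e-06), also the highest of the 180. All 5 differences against BABA kept their call in each of the 16 alternatives that gave a value, while the other 6 of the 11 called pairs were lost in at least 1. Their sizes moved: SA minus BABA ran from 3.41 with arrays scaled to one spread to 5.33 with TUA5 centring. BABA minus ET was -2.065 with arrays scaled to one spread and -3.42 with deposited values. The BABA arrays at 5 and 10 h, with 1 spot each for this gene, had the largest SDs over spots of all arrays (1.79 and 1.96).

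For AT1G33110 the order was SA, ET, MeJA, BTH, INA and BABA, and 8 of 15 pairs were called. SA exceeded ET by 0.95 ± 0.38 (adjusted p = 0.037), MeJA by 1.00 ± 0.38 (adjusted p = 0.028) and BTH by 1.01 ± 0.38 (adjusted p = 0.037). These 3 calls were lost in several alternatives. Without the 2 h conditions the differences were 0.56, 0.41 and 0.62, with adjusted p of 0.23, 0.37 and 0.24. With quantile normalization they were 0.47, 0.40 and 0.46 and not called. They were also lost without 5 h, where they were 0.71, 0.93 and 1.03, and 2 of them (MeJA, 1.10, and BTH, 1.21) without 10 h. SA minus INA was similar in size, 1.11 ± 0.38, and was not called (adjusted p = 0.076), but was without 24 h (1.36, adjusted p = 0.028) and without the first INA 10 h array (1.20, adjusted p = 0.049). With p-values adjusted over all 15 pairs together, SA minus INA was called (adjusted p = 0.024) and SA minus ET was not (adjusted p = 0.051).

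ET, MeJA, BTH and INA lay within 0.16 of each other for AT1G33110. Neighbouring differences were 0.05 between ET and MeJA, -0.02 for BTH minus MeJA and -0.09 for INA minus BTH, each with a 95% interval of 0.78 either side, so differences of up to about that size could not be detected. INA exceeded BABA by 1.19 ± 0.38 (adjusted p = 0.037), and this call was lost in 9 of 19 alternatives, among them leaving out 2, 5 or 10 h (0.95, 1.18 and 1.08) or the first INA 10 h array (1.11). BTH minus BABA (1.29, adjusted p = 0.0085) was lost without 5 h (1.09) or 10 h (1.14) and with deposited values (1.23, adjusted p = 0.059). BABA minus ET was -1.35 (adjusted p = 0.0063), lost without 10 h at -1.14. SA minus BABA (2.30 ± 0.38, adjusted p = 0.00012) and BABA minus MeJA (-1.30, adjusted p = 0.0050) were called in all 19.

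Time separated the genes. AT1G66760 differed between times (F = 23.6, adjusted p = 7.3e-06, 12th of 180 genes), where 57.8% of all genes passed, and AT1G33110 did not (F = 0.26, adjusted p = 0.86, 178th). From 2 to 24 h AT1G66760 fell by 1.92 ± 0.29 on the log2 scale (adjusted p = 1.8e-05), against a background of 42.2% of genes called. Its 24 h values came from SA, INA, BTH and MeJA, as BABA and ET had none. The same difference for AT1G33110 was 0.05 ± 0.31, with a 95% interval of 0.64 either side (adjusted p = 0.91). With TUA5 centring these differences were -1.10 (adjusted p = 0.0021) for AT1G66760 and 0.88 (adjusted p = 0.057) for AT1G33110.

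AT1G66760 had its highest value at 2 h under all 6 agents after median centring. With deposited values, TUA5 centring or arrays scaled to one spread this held for 5 of the 6. AT1G33110 was highest at 2 h under 2 agents, SA and INA, at 5 h under BTH, at 10 h under ET and at 24 h under BABA and MeJA. Under SA and BABA that time was the same with all 4 other scalings, whereas under INA, BTH, ET and MeJA it moved with at least 1 of them.

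Late times (10 and 24 h) were also set against early times (2 and 5 h) with each agent given its own change. The mean change over agents was -1.36 ± 0.28 for AT1G66760 (adjusted p = 0.0018, where 25% of genes passed) and -0.11 ± 0.19 for AT1G33110 (adjusted p = 0.72). Within single agents AT1G66760 changed by -0.78 (ET) to -1.76 (MeJA), negative under all 6, and no such change was called. Under BABA and ET its late value was that of 10 h alone, and under INA the 24 h value came from 1 spot. AT1G33110 had -1.48 ± 0.47 under SA (unadjusted p = 0.0055 in limma's moderated test, adjusted p = 0.11), negative values under INA (-0.26) and BTH (-0.35), and positive values under BABA (0.50), ET (0.41) and MeJA (0.51), none of them called. Within agents 0.37% of all gene and agent combinations passed, so such calls were rare for any gene.

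Whether the late change differed between agents was tested for all genes. AT1G66760 gave F = 0.24 and AT1G33110 F = 2.74 (unadjusted p = 0.053 in limma's moderated test), with an adjusted p of 1.0 for both. With the same test 0% of the 180 genes passed, and 7 had an unadjusted p under 0.05. The opposite signs of AT1G33110 under SA and under BABA, ET and MeJA are therefore values without a called difference.

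Setting both genes against each other on the same array removes the centring. It does not remove a dye effect particular to 1 gene, since treated RNA carried Cy5 on every array, and such an effect was not tested. A difference between log ratios compares responses, not amounts of transcript. AT1G66760 was below AT1G33110 in 18 of the 22 conditions with both, by a mean of -0.78 with an SD of 1.06 (two-sided sign-flip permutation test over conditions, p = 0.0026). Conditions of one agent share that agent and the kind of reference. Over agent means, which were below 0 for 5 of 6 agents and averaged -0.84, an exact two-sided sign-flip permutation test gave p = 0.063, where 0.031 is the smallest it allows. The 4 conditions in which AT1G66760 was above were INA and BTH at 2 h (0.36 and 0.29) and MeJA at 2 and 5 h (1.92 and 0.62).

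By 10 h the difference was negative under every agent. The smallest gap was that of SA, -0.32, followed by MeJA with -1.02, BTH with -1.61, INA with -1.68, ET with -1.72 and BABA with -2.78. Under SA it stayed between -0.76 and -0.32 over all 4 times, the narrowest range of the 6 agents (SD 0.18), whereas under MeJA it ran from 1.92 to -1.02 (SD 1.41). Repeat arrays of a condition gave -2.32 and -1.04 for INA after 10 h, and -1.09 and -0.32 for BTH after 5 h. Arrays titled as repeats can thus differ by about 1 in this quantity. The first INA array is the one that names 2 h in another field. Without it INA at 10 h was -1.04, close to MeJA. Leaving out 10 h gave a mean of -0.51, and leaving out 2 h gave -1.16.

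**Figure D4:**
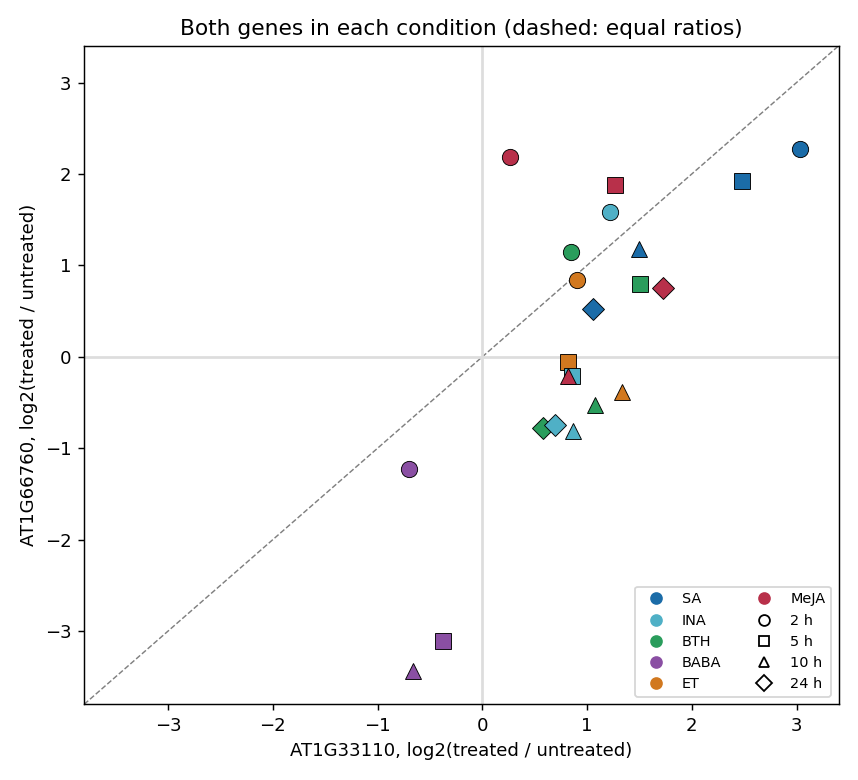
AT1G66760 against AT1G33110 in the 22 conditions with both, each axis a median-centred log2 ratio; colour marks the agent, shape the time, and the dashed line equal ratios. 18 points lie below the line, 3 of the 4 above it are 2 h conditions, and the BABA points at 5 and 10 h lie lowest.

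Despite that offset, values of both genes were correlated over the conditions. Over the 22 shared conditions Pearson's r was 0.74 and Spearman's rho 0.63 (Pearson's r 0.76 with deposited values). Both genes had their highest agent mean under SA and their lowest under BABA, and both fell at each step under SA. Under MeJA the courses ran apart: 2.19, 1.88, -0.21 and 0.75 for AT1G66760 against 0.27, 1.26, 0.82 and 1.73 for AT1G33110. Whether the correlation holds without SA and BABA was not tested. Among 176 genes compared over the conditions each shares with AT1G66760, AT1G33110 had the highest r. Among 179 genes compared with AT1G33110, AT1G66760 ranked 2nd. The conditions share arrays, the untreated reference and 6 agents, so these are descriptions without a test. The median r over all genes was 0.04 for AT1G66760 and 0.01 for AT1G33110.

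The next genes by likeness to AT1G66760 were AT2G45820 (r = 0.73), AT1G73480 (0.73), AT5G16010 (0.68) and AT1G66100 (0.65). Their levels against the median varied: AT2G45820 had means from -2.10 (BABA) to -0.94 (MeJA), below 0 under all 6 agents. AT1G73480 was above 0 under SA (0.28) and MeJA (0.21) and lowest under BABA (-1.43), with the signs of AT1G66760 under these agents. Under SA and MeJA AT5G16010 had 0.07 and -0.25, and AT1G66100 had -1.03 and 1.67. Lowest were AT2G07180 (r = -0.78) and GAMMA-VPE (-0.75), a vacuolar processing enzyme whose mean was 1.13 under BABA.

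AT1G33110 was most like AT5G64250 (r = 0.81 over 24 conditions), which had a mean of 2.38 under SA and between -0.07 and 0.61 under the other agents. After AT1G66760 came GT72B1 (0.72), a glucosyltransferase, AT1G09490 (0.70) and AER (0.64), an alkenal reductase. The lowest were AT2G46600 (-0.59) and AT5G17760 (-0.54).

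Other genes of transport and of conjugation were looked up by family terms in the symbols and synonyms of the 416 named genes, which finds only those so named. No other MATE gene was found this way. Of 2 other transporters found, GTR1, a glucosinolate transporter, was called lower under 5 agents, with means of -1.26 (SA), -1.03 (INA), -1.35 (BTH), -1.30 (BABA) and -1.02 (ET), and had -0.22 under MeJA without a call. OCT5, an organic cation transporter, had values in 16 conditions and was not tested. These means are on the median-centred scale, as are those of the next list.

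Of 12 genes found for conjugation and oxidation (UDP-glucosyltransferases and cytochromes P450, enzymes that modify small molecules before transport), 6 had enough values. Under SA 4 were called higher and 2 lower, with a median of 0.92 against 0.06 over all tested genes. All 6 being called stands against 72.8% of all tested genes. The highest was UGT85A2 at 1.79 and the lowest CYP71B28 at -0.92. Under INA 3 were higher and none lower, led by UGT72E1 at 1.36, with a median of 0.46 against 0.02. Those 3 of 6 compare with 60% of all tested genes.

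Under BTH 2 were higher, UGT72E1 at 1.18 leading, and 1 lower, CYP71B28 at -1.39. BABA gave 2 higher (UGT72E1 at 1.49 the highest) and 2 lower (GT72B1 at -1.36 the lowest), with a median of -0.12 against 0.01. These shares, 3 of 6 and 4 of 6, compare with 60% and 66.7% of all tested genes. Under ET 2 were higher, led by UGT72E1 at 0.89, and 1 lower, GT72B1 at -1.18, with a median of -0.27 against 0.11. Under MeJA 1 was higher, UGT72E1 at 0.61, and GT72B1 had the lowest value, -0.47, without a call. The shares called over all tested genes were 53.9% and 46.1%. None of these list counts was tested against the background.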

How the data were processed

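The deposited values are log ratios per spot of treated (Cy5) over untreated (Cy3) signal. They were read as log2: the base is not given in the sources used here, and another base would rescale every value alike. How the authors filtered and normalized the signals before taking these log2 ratios is not given in the sources used here either.

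Spots were named from the platform annotation, with symbols updated through RefSeq (415 of 416 genes matched). Each array was centred on its median, spots of a gene and repeat arrays of a condition were averaged, and 180 genes with values in at least 20 conditions and 3 times of every agent were fitted with agent and time terms (R 4.3.3, limma 3.58.1 for the moderated variance). P-values were adjusted by the Benjamini-Hochberg method over all tested genes, and 0.05 was the threshold. Late and early times were compared in a fit with a late term for each agent. BABA and ET means of AT1G66760 are least-squares estimates from 3 measured times, with shared time terms standing in for the missing time. The difference between both genes was tested with 100000 sign flips over conditions and, as an alternative chosen after seeing the data, with exact flips over agents. On simulated data for the ET mean, 20 of 20 genes with a log2 change of 1 were recovered, and 10 of 20 with 0.5.

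The members follow from annotation, but they and the gene lists were proposed with earlier results of these data known. Genes named for likeness were the 5 highest and 2 lowest Pearson's r for AT1G66760 and for AT1G33110, and in the lists the highest and lowest mean per agent. Repeat arrays of one RNA were the only numbered replicates. Alternatives changed centring, scaling, spots, filters, repeat arrays, time terms, variance and adjustment, or left out a time. Arrays are few, and their number limits the precision: the median 95% interval of an agent mean was 0.45 either side, and of a pair 0.62.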

Additional observations from a re-analysis of the deposited data

How the results depend on the processing

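Of the values of both genes recomputed under the alternatives, 960 kept their side of the threshold, 906 with the same sign and 54 with another sign but called in neither case, 48 were no longer called, 8 became called with the same sign and 1 became called with the opposite sign. Of those 54, 13 were agent means: 6 settings for INA, 4 for ET and 2 for BTH of AT1G66760, and 1 for BABA of AT1G33110, so their signs are not settled. With TUA5 centring, AT1G66760 under INA turned to 0.88 and under BTH rose to 1.52, now called; the median of all genes moves with that centring. Without a time term its MeJA mean of 1.16 had an adjusted p of 0.052. Leaving out each time in turn gave AT1G33110 under BABA a range from -0.58 to -0.15, called without 24 h. The other lost calls were differences between agents, mostly SA against ET, MeJA or BTH and INA against BABA for AT1G33110. Without a time term the AT1G66760 differences of SA from INA, BTH and ET and of MeJA from INA, BTH and ET were not called. SA minus INA for AT1G66760 was also lost without 5 h (1.32, adjusted p = 0.073), as was ET minus MeJA (-0.99, adjusted p = 0.12). With the repeat number as a replicate block, SA minus BTH for AT1G33110 was 0.88 (adjusted p = 0.058) and no other call of either gene changed; the AT1G66760 mean under SA was 1.51. With arrays scaled to one spread the late change of AT1G66760 under MeJA was called (-2.54, adjusted p = 0.014). Counts of called genes moved by over 1.5 times for MeJA, from 83 to 134 with TUA5 centring, and for times, from 104 to 67 with deposited values and to 67 without 24 h. AT1G66760 gave no fitted value with either spot alone, having too few times under BABA, or with genes complete in all conditions, being unmeasured at 24 h under BABA and ET. Each condition is 1 pool of plants, so no change within a single agent and time can be tested.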
